A study of Mus musculus with 12 samples.

Results

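The interferon regulatory factors (IRFs) of mouse bone marrow-derived macrophages (BMDMs) were examined gene by gene in 12 RNA-seq libraries. The set was given by name and holds 8 genes, Irf1, Irf2, Irf3, Irf4, Irf5, Irf7, Irf8 and Irf9, of 35275 genes in the count tables. All 8 passed the filter on low counts, as did 12849 genes in all. Bone marrow cells of wildtype mice had been cultured for 6 days with M-CSF, IL-4 and IL-10, a mixture that yields alternatively activated macrophages. The cultures received DMSO, the solvent control (4 libraries), the PARP inhibitor olaparib (4 libraries) or MNA, methyl-nicotinamide, a methylated product of nicotinamide metabolism (4 libraries). All groups shared the genotype, the cytokines and the 6 days, and the cells came from 4 donor mice aged 6 to 10 weeks. The doses of olaparib and MNA are not given in the sources used here. The comparisons asked which IRFs differed between each treatment and DMSO, and between the treatments.

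IRFs are transcription factors that bind DNA repeats built around the letters GAAA, and most are named for the induction of type I interferon and of the genes that interferon switches on. IRF3 and IRF7 are activated by the kinases TBK1 and IKK epsilon downstream of nucleic acid sensors and drive the interferon genes. IRF9 joins STAT2 in the complex that carries the type I interferon signal to the interferon-stimulated response element (ISRE). IRF1 is an activator induced by interferon gamma through the gamma-activated sequence (GAS), and IRF2 binds the same DNA as IRF1 and can oppose it. IRF4 and IRF8 act largely with the factor PU.1, IRF4 in macrophages exposed to IL-4 and IRF8 in the monocyte and dendritic cell lineages. IRF5 acts downstream of MyD88 in the induction of inflammatory cytokines, and IRF4 competes with it for MyD88.

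The libraries held 21146291 to 31446849 counts, and the depth ranges of the groups overlapped. MNA replicate 2 stood apart from MNA replicates 1, 3 and 4: it lay within the range of the DMSO libraries for 7 of the 8 IRFs, all but Irf7, and for 67.4% of tested genes. It was kept in the 12-library fit, because its label gives it as MNA. The MNA calls of the 8 IRFs in that fit and its counts over the gene lists are given with and without replicate 2. Effect sizes are not given both ways in each case. A gene counted as called, higher or lower, where edgeR's quasi-likelihood test gave it a Benjamini-Hochberg adjusted p below 0.05 over all tested genes. The labels do not tie a library to a mouse or to a culture, so the p-values measure the spread between these libraries, which may be technical. Levels are CPM, counts scaled to library size with edgeR's TMM normalization, and an error after ± is the SD of 4 libraries unless another n is given. In bulk RNA, fewer cells of a type and less RNA per cell cannot be told apart.

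The start sites of the IRF genes differ in the interferon-response sequences beside them. RefSeq promoter windows (GRCm38.p6, 250 bases before to 50 bases after each start site) were at hand for all 8 genes, 11 windows in total. They were searched on both strands for the ISRE core, GAAA and GAAA with 2 bases of any kind between them, and the GAS, TTCNNNGAA. A GAS was found beside Irf1, Irf2 and Irf8 and an ISRE core beside Irf2, and no match to either was found beside Irf3, Irf4, Irf5, Irf7 or Irf9. Of 32851 promoter windows of the same length, 8.3% held a GAS and 3.44% an ISRE core. The stretches that hold the matches are shown with the matches in capitals, together with the last 100 bases before the Irf7 start site, which hold none and belong to the member with the smallest p in the direct comparison of the treatments. The Irf1 stretch lies at chr11:53769904-53769952 on the plus strand, with its GAS at bases -90 to -82 from the start site. The Irf2 stretch lies at chr8:46739495-46739549 on the plus strand, with the ISRE core at bases -241 to -232 and the GAS at bases -224 to -216, so that they do not overlap. The Irf8 stretch lies at chr8:120736167-120736233 on the plus strand, with its GAS matches at bases -171 to -163 and -153 to -145. The Irf7 stretch lies at chr7:141266425-141266524 and is read on the minus strand.
Irf1: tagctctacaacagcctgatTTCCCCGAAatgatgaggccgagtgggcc
Irf2: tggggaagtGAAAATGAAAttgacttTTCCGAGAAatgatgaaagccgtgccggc
Irf8: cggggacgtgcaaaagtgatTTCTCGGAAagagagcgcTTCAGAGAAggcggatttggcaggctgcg
Irf7: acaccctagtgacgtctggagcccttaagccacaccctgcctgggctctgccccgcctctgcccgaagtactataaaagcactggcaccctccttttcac
A match describes the letters of the window and not a site in use, and the absence of a match says only that these letters are not in this window.

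**Figure D1:**
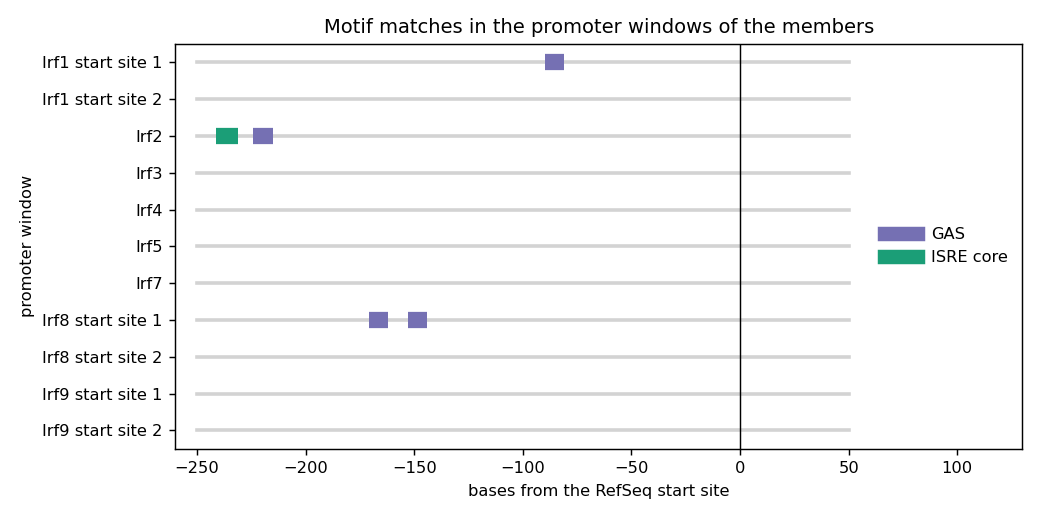
Positions of the motif matches in the 11 RefSeq promoter windows of the 8 IRF genes, in bases from the start site (x axis), 1 window a line. GAS matches (purple) lie beside Irf1, Irf2 and Irf8 and the ISRE core (green) beside Irf2, and the other windows hold neither.

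In control BMDMs the IRFs spanned a wide range of levels. Levels of different genes were compared as CPM per kilobase of exonic length (GENCODE, GRCm38). Irf5 was highest in DMSO at 62.6 ± 7.41 CPM per kilobase, followed by Irf4, the IL-4-associated member, at 29.2 ± 5.20. Irf8 at 13.7 ± 1.77, Irf1 at 13.5 ± 2.67 and Irf2 at 10.9 ± 0.703 CPM per kilobase came next, and the ranges of these neighbours overlapped. Irf9 followed at 7.46 ± 0.664, Irf3 at 5.59 ± 0.431 and Irf7 at 1.66 ± 0.369 CPM per kilobase. Apart from Irf8, Irf1 and Irf2, the ranges of no neighbours in this order overlapped. With coding length (GENCODE) in place of exonic length the order in DMSO was the same except that Irf2 stood above Irf1, and the ranges of Irf5 and Irf4, of Irf4 and Irf8 and of Irf8 and Irf2 overlapped. In olaparib-treated BMDMs Irf7 had come up to 4.61 ± 1.14 CPM per kilobase, and its range overlapped that of Irf3 at 5.71 ± 0.226. In MNA-treated BMDMs Irf1 ranked second at 53.5 ± 29.6 CPM per kilobase, or 67.0 ± 14.6 without replicate 2 (n = 3). Irf5 had the highest mean of the 8 in each group per kilobase of exons. With coding length Irf1 had the highest mean in MNA, at 204 CPM per kilobase against 186 for Irf5, and their ranges overlapped.

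**Figure D2:**
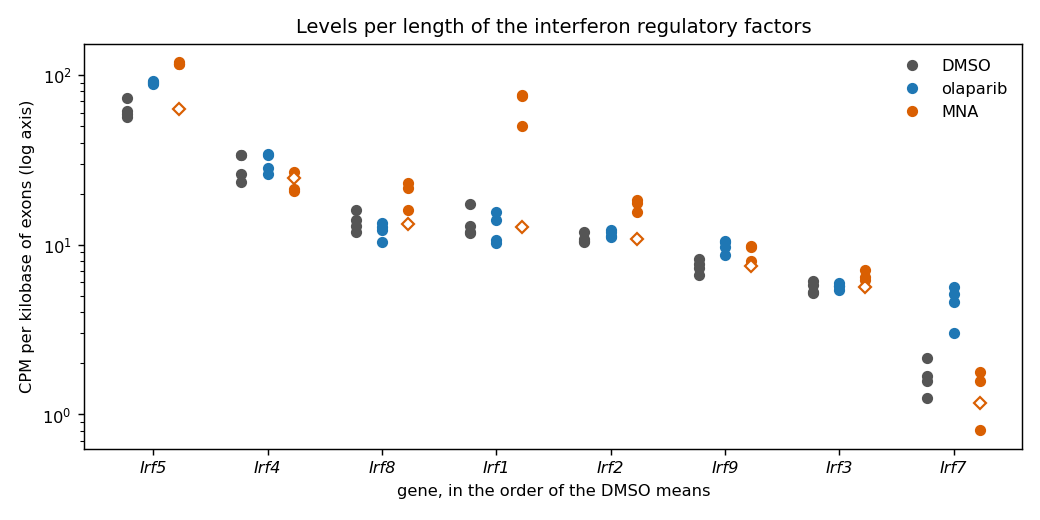
Level of each IRF gene in CPM per kilobase of exons (y axis, log scale) in the 12 libraries, genes ordered by their DMSO mean (x axis). Points are libraries, grey for DMSO, blue for olaparib and orange for MNA, and the open diamond is MNA replicate 2. Irf5 and Irf4 lie above the other genes in DMSO, and Irf7 lies lowest.

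Olaparib was followed by higher levels of 3 of the 8 IRFs and by lower levels of none. Irf7 rose 2.77-fold, Irf5 1.45-fold and Irf9 1.32-fold against DMSO. Irf1, Irf2, Irf3, Irf4 and Irf8 were not called, and 0 of the 8 were lower at an unadjusted edgeR p under 0.05 or by DESeq2. Over all tested genes 14.3% were called up and 12.8% down in this comparison, 27.0% in either direction. For the 3 called genes each of the 4 olaparib libraries lay above each DMSO library, which held for 20.7% of tested genes, and 41.0% did not overlap in either direction. The median log2 fold change of the 8 IRFs was 0.08, that of all tested genes 0.00.

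MNA was followed by higher Irf1, Irf2 and Irf5 in the 12-library fit. Irf1 rose 3.96-fold, Irf5 1.65-fold and Irf2 1.43-fold against DMSO, and no IRF was called lower (1 at an unadjusted edgeR p under 0.05, Irf4, and 0 by DESeq2). Over all tested genes 16.3% were called up and 12.3% down, 28.6% in either direction. The ranges of the 2 groups overlapped for each of the 8 IRFs, MNA replicate 2 lying within the DMSO range for 7 of them, and 12.4% of tested genes did not overlap. Without replicate 2, 6 IRFs were called higher (Irf1, Irf2, Irf3, Irf5, Irf8 and Irf9) and 1 lower (Irf4), against 27.2% of genes called up and 26.9% called down. The ranges of 4 of the 8, Irf1, Irf2, Irf3 and Irf5, then did not overlap DMSO, against 54.4% of tested genes. The median log2 fold change of the 8 IRFs was 0.33, and 0.43 without replicate 2, against 0.00 for all tested genes in both fits. In a fit of the MNA and DMSO libraries alone, with replicate 2 kept, none of the 8 was called by edgeR. In it 4 were higher at an unadjusted p under 0.05. That fit called no gene of the gene lists below either, so the 0 is not particular to the IRFs. Its common dispersion was 0.0447, against 0.0333 in the 12-library fit. DESeq2 on the 12 libraries called 4 higher. The shares over all genes in that fit and by DESeq2 are not given here. Both treatments were compared with the same DMSO libraries, so that the changes against DMSO are not independent of each other.

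**Figure D3:**
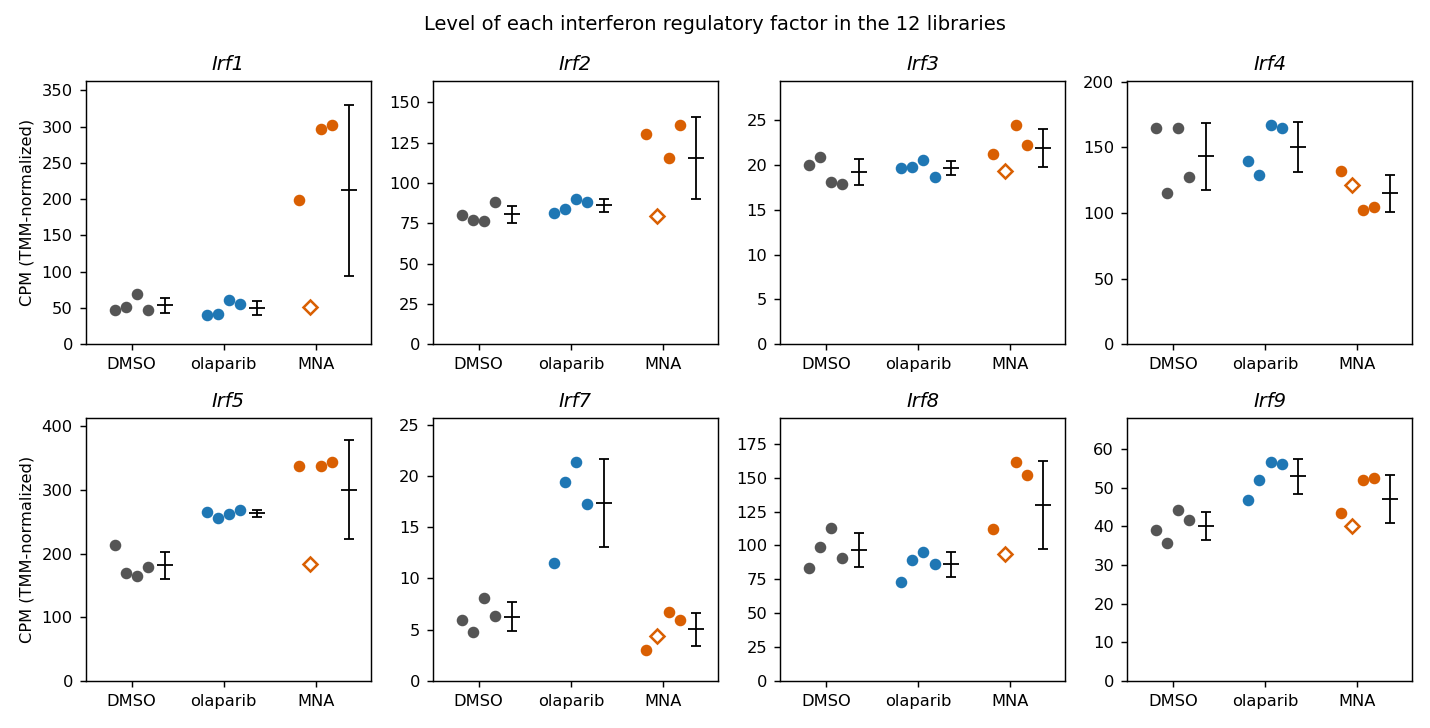
CPM of each IRF gene (y axes, each from 0) in the DMSO, olaparib and MNA libraries (x axis). Points are libraries, the open diamond is MNA replicate 2, and the bar beside each group is the mean ± SD of its 4 libraries. The olaparib points of Irf5, Irf7 and Irf9 lie above all DMSO points, and MNA replicates 1, 3 and 4 lie above DMSO for Irf1, Irf2, Irf3 and Irf5.

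Irf7, which encodes the inducible factor that amplifies type I interferon, was higher with olaparib and not with MNA. Its level was 5.91, 4.75, 8.11 and 6.35 CPM in DMSO replicates 1 to 4, on 126 to 242 counts. It was 11.5, 19.4, 21.4 and 17.3 CPM in the olaparib libraries, on 325 to 509 counts. In MNA replicates 1, 3 and 4 it was 3.04, 6.75 and 5.91 CPM, and in replicate 2 it was 4.41 CPM. Each olaparib library was above each of the other 8, and olaparib replicate 1 was the lowest of the 4. The change with olaparib was 1.47 ± 0.26 (SE) on the log2 scale (edgeR adjusted p = 0.00232). Leaving out any 1 library kept the call, with adjusted p up to 0.0104. The change with MNA was -0.32 ± 0.26 (95% interval -0.88 to 0.24, edgeR adjusted p = 0.351) and was not called with or without replicate 2.

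Irf9, the DNA-binding subunit of the type I interferon response complex, was also higher with olaparib. DMSO replicates 1 to 4 had 39.1, 35.8, 44.2 and 41.6 CPM, and the olaparib libraries had 46.8, 52.1, 56.8 and 56.2 CPM. MNA replicates 1, 3 and 4 had 43.4, 52.0 and 52.6 CPM, and replicate 2 had 40.2 CPM. The olaparib libraries lay above all DMSO libraries, while MNA replicate 1 lay inside the DMSO range and replicates 3 and 4 above it. The change with olaparib was 0.40 ± 0.10 (SE) on the log2 scale (edgeR adjusted p = 0.0149), and the call held when any 1 library was left out, with adjusted p up to 0.0483. With MNA it was 0.23 ± 0.10 (edgeR adjusted p = 0.104), and 0.29 ± 0.09 without replicate 2 (edgeR adjusted p = 0.0143). Irf9 shares 2.28% of its exonic bases with Rnf31 on the same strand, and Rnf31 was not called with olaparib (log2 fold change 0.13, edgeR adjusted p = 0.455) but was called higher with MNA (0.36, edgeR adjusted p = 0.0496).

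Irf3, the constitutively made factor activated directly by TBK1, was nearly level across the 12 libraries. It had 20.1, 20.9, 18.1 and 17.9 CPM in DMSO and 19.6, 19.8, 20.6 and 18.7 CPM in olaparib. It had 21.3, 24.5 and 22.3 CPM in MNA replicates 1, 3 and 4 and 19.4 CPM in replicate 2. The olaparib libraries lay within the DMSO range, and MNA replicates 1, 3 and 4 lay above it by a small margin. The 95% interval of its log2 fold change with olaparib was -0.15 to 0.21 (edgeR adjusted p = 0.804). With MNA the change was 0.19 ± 0.08 (SE, edgeR adjusted p = 0.108), and 0.24 ± 0.08 without replicate 2 (edgeR adjusted p = 0.0213).

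Irf1, the activator at the interferon gamma arm of the family, had the largest change of the 8 with MNA. DMSO replicates 1 to 4 had 46.9, 51.1, 69.3 and 47.2 CPM, and the olaparib libraries had 40.8, 42.2, 61.7 and 55.5 CPM. MNA replicates 1, 3 and 4 had 199, 297 and 303 CPM, on 4847 to 7706 counts. MNA replicate 2 had 50.8 CPM on 1419 counts, a value inside the DMSO range. The olaparib range overlapped that of DMSO, and 3 of the 4 MNA libraries were far above both. The change with MNA was 1.99 ± 0.41 (SE) on the log2 scale (edgeR adjusted p = 0.0142), and 2.31 ± 0.18 without replicate 2 (edgeR adjusted p = 1.71e-07). Leaving out any 1 library kept the call, with adjusted p up to 0.0488, but it was lost in the fit of the MNA and DMSO libraries alone (edgeR adjusted p = 0.064). With olaparib the change was -0.10 ± 0.40 (95% interval -0.98 to 0.77, edgeR adjusted p = 0.870), so that changes of less than these bounds could not be told from none.

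Irf2, the factor that shares DNA sites with IRF1, moved less. It had 80.2, 77.3, 76.5 and 87.9 CPM in DMSO and 81.7, 83.8, 90.3 and 88.4 CPM in olaparib. It had 131, 115 and 136 CPM in MNA replicates 1, 3 and 4 and 79.8 CPM in replicate 2. MNA replicates 1, 3 and 4 lay above all DMSO and olaparib libraries, and replicate 2 lay within the DMSO range. The change with MNA was 0.52 ± 0.13 (SE) on the log2 scale (edgeR adjusted p = 0.0202). Its call was lost when DMSO replicate 2 or 3 or MNA replicate 1, 3 or 4 was left out, with adjusted p up to 0.0667. Without MNA replicate 2 it was 0.66 ± 0.07 (edgeR adjusted p = 2.79e-06). With olaparib it was 0.10 ± 0.13 (95% interval -0.19 to 0.38, edgeR adjusted p = 0.610).

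Irf8, required for monocyte and dendritic cell development and itself inducible by interferon gamma, was not called against DMSO with either treatment in the 12-library fit. It had 83.5, 98.5, 113 and 90.6 CPM in DMSO and 72.8, 89.6, 94.8 and 86.7 CPM in olaparib. It had 112, 162 and 152 CPM in MNA replicates 1, 3 and 4 and 93.5 CPM in replicate 2. MNA replicates 3 and 4 were above the other 10 libraries, and MNA replicate 1 was just below the highest DMSO library. The change with MNA was 0.43 ± 0.16 (SE) on the log2 scale (edgeR adjusted p = 0.0599), and 0.56 ± 0.13 without replicate 2 (edgeR adjusted p = 0.00208). With olaparib it was -0.16 ± 0.16 (95% interval -0.51 to 0.18, edgeR adjusted p = 0.466), and each olaparib library was below the DMSO library of its own number. With the replicate number as a block and without MNA replicate 2, Irf8 was called lower with olaparib (log2 fold change -0.16, edgeR adjusted p = 0.0299).

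Irf4, the IRF most tied to IL-4 in macrophages, was the member that went down with MNA without replicate 2. It had 165, 115, 165 and 128 CPM in DMSO and 139, 129, 167 and 165 CPM in olaparib. It had 132, 102 and 104 CPM in MNA replicates 1, 3 and 4 and 121 CPM in replicate 2. MNA replicates 3 and 4 were lower than every other library, and replicates 1 and 2 lay within the DMSO range. The change with MNA was -0.32 ± 0.13 (SE) on the log2 scale (edgeR adjusted p = 0.089), and -0.35 ± 0.14 without replicate 2 (edgeR adjusted p = 0.0493). With olaparib it was 0.07 ± 0.13 (95% interval -0.22 to 0.36, edgeR adjusted p = 0.730).

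Irf5, the MyD88-dependent factor of inflammatory cytokine genes, was the 1 member called higher with both treatments in the 12-library fit. DMSO replicates 1 to 4 had 213, 170.2, 165 and 179 CPM, and the olaparib libraries had 266, 255, 262 and 269 CPM. MNA replicates 1, 3 and 4 had 337, 338 and 345 CPM, and replicate 2 had 183 CPM. The olaparib libraries stood between DMSO and MNA replicates 1, 3 and 4 with no overlap on either side, and MNA replicate 2 lay within the DMSO range. The change with olaparib was 0.53 ± 0.17 (SE) on the log2 scale (edgeR adjusted p = 0.0329). This call was lost when DMSO replicate 2, 3 or 4 or any 1 olaparib library was left out, with adjusted p up to 0.0881, and without MNA replicate 2 it stood at an adjusted p of 4.93e-05. The change with MNA was 0.73 ± 0.17 (edgeR adjusted p = 0.0163), lost without MNA replicate 1, 3 or 4 (adjusted p up to 0.056), and was 0.90 ± 0.08 without replicate 2 (edgeR adjusted p = 3.40e-07). Irf5 shares 14.1% of its exonic bases with Tnpo3 on the other strand, and the strand setting of the counting is not given in the sources used here. Tnpo3 was called lower with olaparib (log2 fold change -0.23 ± 0.06, edgeR adjusted p = 0.0154) and not called with MNA (0.01 ± 0.06, edgeR adjusted p = 0.888).

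Set directly against each other, the treatments differed for 4 of the 8 IRFs. Irf7 was 3.46-fold higher with olaparib than with MNA (log2 1.79 ± 0.26, edgeR adjusted p = 6.82e-04), with no overlap between the groups, as for 11.5% of tested genes in this direction. Irf1 was lower with olaparib by a log2 difference of -2.09 ± 0.41 (edgeR adjusted p = 0.0046), Irf8 by -0.60 ± 0.16 (edgeR adjusted p = 0.0209) and Irf2 by -0.42 ± 0.13 (edgeR adjusted p = 0.0386). Over all tested genes 10.9% were called higher and 10.9% lower with olaparib. The Irf1 and Irf7 calls held when any 1 library was left out. The Irf8 call was lost without olaparib replicate 1 or MNA replicate 3 or 4 (adjusted p up to 0.0626), and the Irf2 call without any 1 of 10 of the 12 libraries (adjusted p up to 0.108), the exceptions being DMSO replicate 4 and MNA replicate 2. Without MNA replicate 2, Irf3 and Irf5 were also called lower and Irf4 also higher with olaparib, against 20.7% of genes called lower and 21.5% higher. Irf9 was not called in either fit, with a difference of 0.17 ± 0.10 (95% interval -0.05 to 0.39, edgeR adjusted p = 0.260).

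**Figure D4:**
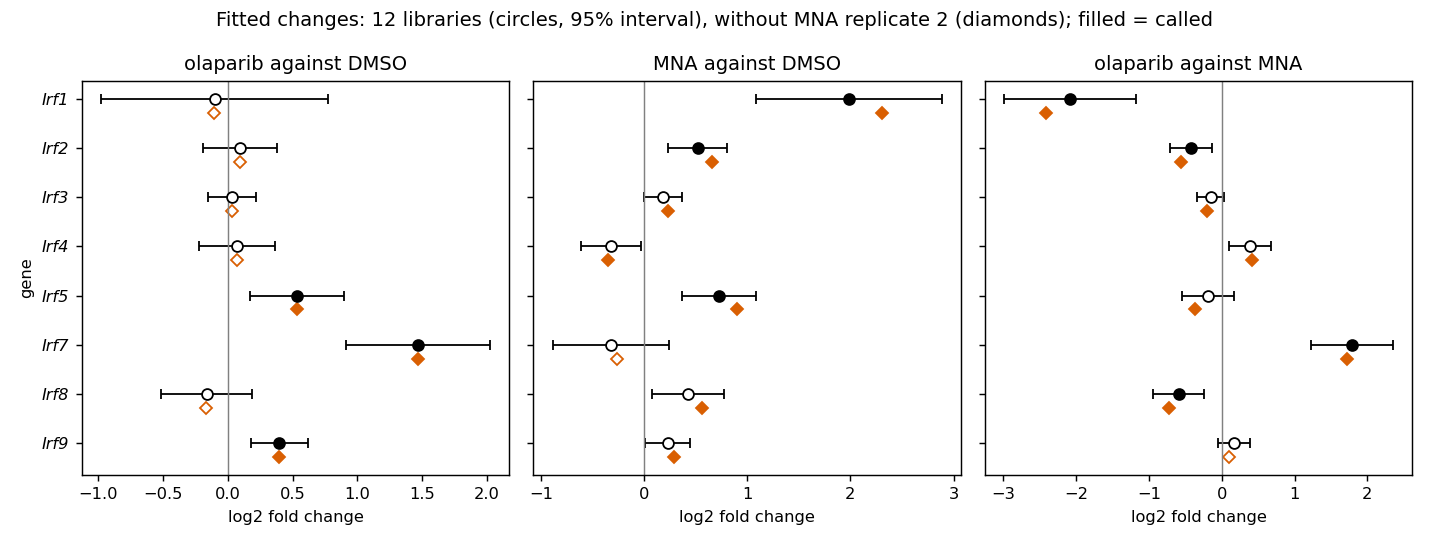
Fitted log2 fold change of each IRF gene (x axes) for olaparib and for MNA relative to DMSO (left and middle) and for olaparib relative to MNA (right). Black circles with 95% intervals are from the 12 libraries and orange diamonds from the fit without MNA replicate 2, and filled symbols were called at an adjusted p under 0.05. The changes of Irf1 with MNA (1.99) and Irf7 with olaparib (1.47) are the largest against DMSO.

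Ratios within a library put opposed members side by side, on levels per kilobase and as a description. Irf5 over Irf4, rivals for MyD88, was 1.69 to 2.49 in the DMSO libraries and 2.65 to 3.35 in the olaparib libraries. It was 4.31 to 5.59 in MNA replicates 1, 3 and 4 and 2.55 in replicate 2. The 3 sets of libraries did not overlap once replicate 2 was set apart, and replicate 2 fell just above the DMSO range. Irf1 over Irf2 was 0.999 to 1.69 in DMSO, 0.929 to 1.27 in olaparib, 2.84 to 4.80 in MNA replicates 1, 3 and 4 and 1.18 in replicate 2. Irf8 over Irf4 was 0.352 to 0.594 in DMSO, 0.363 to 0.484 in olaparib, 0.592 to 1.10 in MNA replicates 1, 3 and 4 and 0.536 in replicate 2. For the former of these pairs MNA replicates 1, 3 and 4 stood clear of the other libraries, while for the latter the lowest of them met the top of the DMSO range. Irf7 over Irf3, the inducible over the constitutive partner, was 0.207 to 0.408 in DMSO, 0.533 to 0.949 in olaparib and 0.130 to 0.251 in the 4 MNA libraries. It was the 1 ratio of the 4 that was highest with olaparib.

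**Figure D5:**
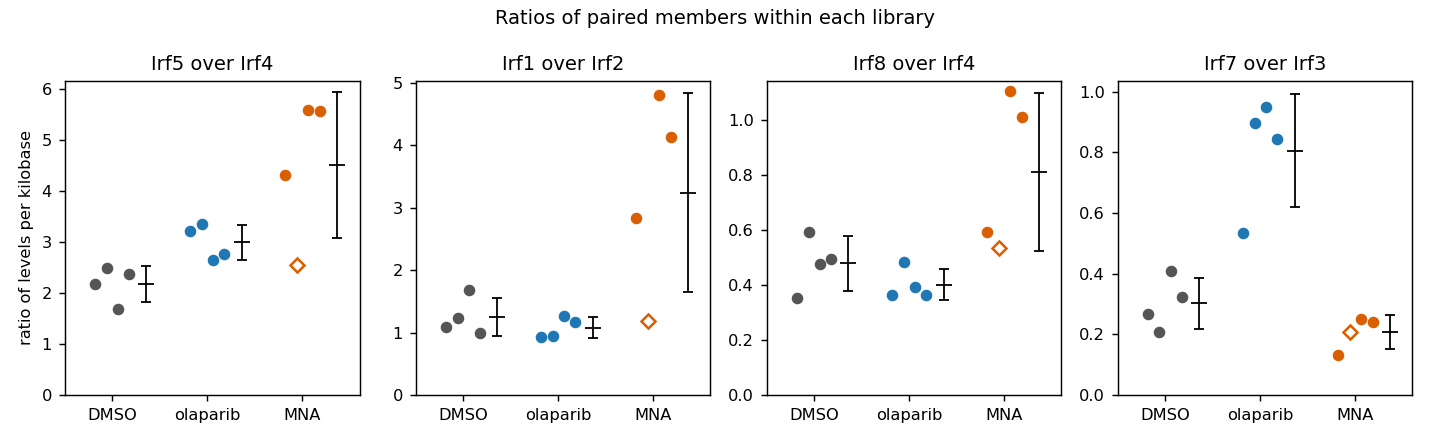
Ratios of the levels per kilobase of 4 pairs of IRF genes (y axes, each from 0) in the DMSO, olaparib and MNA libraries (x axis). Points are libraries, the open diamond is MNA replicate 2, and bars are the mean ± SD of 4 libraries. Irf5 over Irf4 is higher in olaparib than in DMSO and highest in MNA replicates 1, 3 and 4, and Irf7 over Irf3 is highest in olaparib.

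The genes whose pattern over the 12 libraries was most like that of each IRF were listed by Pearson's r of log2 CPM among 9715 genes averaging 100 counts or more. These values are descriptions, since the 12 libraries share their groups and MNA replicate 2, and group levels set much of each r. Nearest to Irf1 was Gbp2, an interferon-inducible guanylate-binding protein gene (r = 0.989), with 40.6 CPM in DMSO, 45.0 in olaparib, 311 in MNA replicates 1, 3 and 4 and 36.5 in replicate 2. Trim12c followed (r = 0.988). Nearest to Irf7 was Rtp4, a type I interferon-induced gene (r = 0.979), with 2.26 CPM in DMSO, 15.9 in olaparib, 2.43 in MNA replicates 1, 3 and 4 and 0.860 in replicate 2, followed by Fundc2 (r = 0.969). Nearest to Irf5 were the sugar transporter gene Slc2a6 (r = 0.994) and Cyth4 (r = 0.991). Slc2a6 had 32.0 CPM in DMSO, 84.6 in olaparib, 165 in MNA replicates 1, 3 and 4 and 32.0 in replicate 2, the same order of groups as Irf5. Nearest to Irf2 were Msmo1, a cholesterol synthesis gene (r = 0.994), and Castor2 (r = 0.988), to Irf8 Tapbpl (r = 0.972) and Fkbp9 (r = 0.957), and to Irf9 Tmem35b (r = 0.957) and Lgals3bp (r = 0.956). Nearest to Irf3 were 4930430F08Rik (r = 0.958) and Fbxw8 (r = 0.932). Irf4 had the lowest nearest r of the 8, with Ccdc126 (r = 0.894) and Trdmt1 (r = 0.890).

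Upstream of the IRFs, sensors and adaptors moved in part with both treatments. Of 22 tested genes of the activation machinery, from Toll-like receptors to TBK1, 8 were called up and 2 down with olaparib (median log2 fold change 0.24), and 8 up and 3 down with MNA (median 0.25). Over all tested genes 14.3% were called up and 12.8% down with olaparib, and 16.3% and 12.3% with MNA. The counts without MNA replicate 2 were 13 up and 3 down with olaparib, against 22.5% and 21.2% of all tested genes, and 14 up and 4 down with MNA, against 27.2% and 26.9%. The MNA count varied with single libraries, with none called up without MNA replicate 1, 3 or 4 and 2 to 4 without DMSO replicate 2, 3 or 4. All-gene shares in fits that leave out a library other than MNA replicate 2 are not given here. Whether such falls, here and in the lists below, exceed those over all genes was not tested. With olaparib 5 were called up without DMSO replicate 1, 2 or 4 or olaparib replicate 2 or 3. With olaparib the smallest p-values belonged to Tlr8, an endosomal RNA receptor (82.3 ± 11.6 CPM in DMSO, 143 ± 13.3 in olaparib, edgeR adjusted p = 0.00247), Ddx58, the RIG-I sensor of viral RNA, also called up with MNA (19.4 ± 2.07 and 41.4 ± 5.31, edgeR adjusted p = 0.00281), and Ifih1, the MDA5 sensor (log2 fold change 0.44, edgeR adjusted p = 0.00536). With MNA they belonged to Tmem173, which encodes STING (log2 fold change 0.67, edgeR adjusted p = 0.0168), Tlr9, also called up with olaparib (2.66 with MNA, edgeR adjusted p = 0.0173), and Tlr7 (-1.63, edgeR adjusted p = 0.0185). Tlr7, which signals through MyD88 to IRF5 and IRF7, was at 20.3 ± 2.505 CPM in DMSO, 39.0 ± 3.90 in olaparib and 6.54 ± 4.93 in MNA, with 13.0 in MNA replicate 2.

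Of the interferons themselves, little was detected. Of 21 ligand genes 1, Ifng, passed the filter. Ifnb1, the first type I interferon made after IRF3 activation, had 0 counts in all 12 libraries, which allows up to 3 counts per library at this depth. Ifng had 1, 0, 4 and 1 counts in the DMSO libraries, 3, 0, 1 and 12 in the olaparib libraries, 28, 36 and 29 in MNA replicates 1, 3 and 4 and 3 in replicate 2. Its libraries with MNA, replicate 2 apart, stood above all others, in the same libraries in which Irf1 was high. Its log2 fold change with MNA was 4.03 ± 0.99 (SE, edgeR adjusted p = 0.0192), a call lost without DMSO replicate 2 or MNA replicate 1, 3 or 4, and with olaparib 1.38 ± 1.21 (edgeR adjusted p = 0.411). T and NK cells are known makers of interferon gamma, and their 6 markers did not move as 1 group. Nkg7, singled out after its values were seen, had 0 to 4 counts in the DMSO libraries, 2 to 14 in the olaparib libraries, 48, 51 and 55 in MNA replicates 1, 3 and 4 and 2 in replicate 2. Klrb1c had 54 to 100 counts in DMSO and 299 to 458 in olaparib, but 51, 37 and 22 in MNA replicates 1, 3 and 4 and 55 in replicate 2. Cd3e had 0 to 2 counts in DMSO, 0 to 26 in olaparib, 14, 12 and 19 in MNA replicates 1, 3 and 4 and 12 in replicate 2. The part of these markers in the Ifng and Irf1 results was not tested.

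Of 11 tested interferon receptor, JAK and STAT genes, 4 were called up and 1 down with olaparib, and 5 up and none down with MNA (1 down at an unadjusted edgeR p under 0.05, 0 by DESeq2), beside all-gene shares of 14.3% up and 12.8% down with olaparib and 16.3% and 12.3% with MNA. With MNA replicate 2 left out, 5 were called up and 1 down with olaparib and 6 up and 1 down with MNA, where the all-gene shares were 22.5% and 21.2%, and 27.2% and 26.9%. The number called up with MNA was 0 without MNA replicate 3, 1 without MNA replicate 1 or 4 or DMSO replicate 2 or 3, 2 without DMSO replicate 4 and 3 without olaparib replicate 2. The number called up with olaparib was 2 without any 1 DMSO library or olaparib replicate 3 or 4. Stat2, the partner of IRF9, rose with both, from 45.1 ± 3.42 CPM in DMSO to 79.9 ± 9.95 in olaparib (edgeR adjusted p = 0.0162) and 91.4 ± 30.2 in MNA (edgeR adjusted p = 0.0144, 46.1 CPM in replicate 2). Tyk2, a kinase of the type I interferon receptor, rose with MNA (log2 fold change 0.34, edgeR adjusted p = 0.0251) and with olaparib (0.28, edgeR adjusted p = 0.044). With olaparib Stat3, which carries the IL-10 signal, fell by 0.66 on the log2 scale (edgeR adjusted p = 4.06e-04), and Ifngr1, a chain of the interferon gamma receptor, rose by 0.60 (edgeR adjusted p = 0.00269), as it did with MNA by 0.32 (edgeR adjusted p = 0.0422).

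The type I interferon targets are genes that IRF9 with STAT2 is known to switch on. Of 43 tested, 22 were called up and none down with olaparib, with a median log2 fold change of 0.79, and 20 up and 2 down with MNA, with a median of 0.47. Over all tested genes the shares were 14.3% up and 12.8% down with olaparib and 16.3% and 12.3% with MNA. Of 44 tested without MNA replicate 2, 35 were called up and 1 down with olaparib and 27 up and 6 down with MNA, where the all-gene shares were 22.5% and 21.2%, and 27.2% and 26.9%. The MNA count up fell to 6 without MNA replicate 1, to 3 without replicate 3 or 4, to 7 without DMSO replicate 2 and to 11 without DMSO replicate 3 or 4. At an unadjusted edgeR p under 0.05, 1 was lower with olaparib, and by DESeq2 0 were. Ifi27l2a rose from 1.17 ± 0.303 CPM in DMSO to 14.3 ± 4.23 in olaparib (edgeR adjusted p = 2.78e-04) and was also called up with MNA (log2 fold change 1.55, edgeR adjusted p = 0.025). Oasl2 rose by 1.84 on the log2 scale (edgeR adjusted p = 3.09e-04) and Xaf1 by 0.80 (edgeR adjusted p = 7.75e-04). With MNA the smallest p-values were those of Ccl5, a T cell-attracting chemokine (log2 fold change 4.52), Ifit2 (2.49) and Ifit3 (2.19), each at an edgeR adjusted p of 0.0142, and of these Ccl5 and Ifit3 were also called up with olaparib. Ccl5 was near the floor in DMSO, at 0.0898 ± 0.0158 CPM and at most 3 counts, and was at 2.16 ± 1.29 CPM in MNA. Ifit3 was at 0.845 ± 0.136 CPM in DMSO and 3.87 ± 1.79 in MNA. Ifit2 was at 3.97 ± 0.631 CPM in DMSO, 9.73 ± 3.19 in olaparib and 22.4 ± 13.0 in MNA, with 4.55 in MNA replicate 2. Directly compared, 18 of the 43 were higher with olaparib than with MNA and none lower (2 at an unadjusted edgeR p under 0.05, 1 by DESeq2), and without MNA replicate 2, 19 were higher and 13 lower of 44 tested. Over all tested genes 10.9% were called higher and 10.9% lower in this comparison, and 21.5% and 20.7% without MNA replicate 2.

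The interferon gamma targets, among them genes that need IRF1, were called in larger number with MNA than with olaparib in the 12-library fit. The fits of 2 groups alone called 16 up with olaparib and none with MNA. That MNA fit called no gene of any list, so its 0 is not particular to these targets. The common dispersions of these fits differed, at 0.0104 for olaparib and DMSO and 0.0447 for MNA and DMSO with replicate 2 kept. In the latter fit 23 of 28 targets were higher at an unadjusted edgeR p under 0.05. Shares over all genes in these fits are not given here. Of 28 tested in the 12-library fit, 3 were called up and none down with olaparib (1 down at an unadjusted edgeR p under 0.05 and 1 by DESeq2, median log2 fold change 0.48), and 19 up and 1 down with MNA (median 1.43), beside all-gene shares of 14.3% up and 12.8% down with olaparib and 16.3% and 12.3% with MNA. The 3 with olaparib were Icam1, an adhesion molecule (19.7 ± 2.24 CPM in DMSO, 68.0 ± 6.89 in olaparib, edgeR adjusted p = 0.00148), Nos2, the inducible nitric oxide synthase, called down with MNA (18.9 ± 4.41 and 59.1 ± 27.2 with olaparib, edgeR adjusted p = 0.00393), and B2m, the light chain of MHC class I (log2 fold change 0.45, edgeR adjusted p = 0.0492). With MNA they were led by Gbp7 (log2 fold change 2.92), Gbp2 (2.57) and Icam1 (1.39), each at an edgeR adjusted p of 0.0142. Gbp7 was at 8.49 ± 1.51 CPM in DMSO, 9.87 ± 1.43 in olaparib and 64.6 ± 38.6 in MNA, with 7.74 in MNA replicate 2, and so stood with Irf1 and not with Irf7. In the direct comparison 2 of the 28 were higher and 10 lower with olaparib than with MNA, and 2 and 23 of 29 without MNA replicate 2. The shares over all tested genes were 10.9% higher and 10.9% lower, and 21.5% and 20.7% without MNA replicate 2. Without MNA replicate 2 the counts of 29 tested were 15 up and 1 down with olaparib, where 22.5% and 21.2% of all tested genes were called up and down, and 26 up and 2 down with MNA, where the shares were 27.2% and 26.9%. The number up with MNA was 8 without MNA replicate 3 and 6 without replicate 4.

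Of 20 tested partners and co-regulators of IRFs, 3 were called up and 5 down with olaparib, and 6 up and 5 down with MNA. The 3 of 20 called up with olaparib are near the 14.3% of all tested genes, and the other shares over all genes were 12.8% down with olaparib and 16.3% up and 12.3% down with MNA. Leaving out MNA replicate 2 gave 5 up and 7 down with olaparib and 7 up and 6 down with MNA, against the higher all-gene shares given above for that fit. With olaparib, 1 was called up and 1 down without DMSO replicate 2 or olaparib replicate 4, 1 down without DMSO replicate 3 or olaparib replicate 1, and 2 down without olaparib replicate 2. With MNA, 1 was called up and none down without MNA replicate 1, 3 or 4 or DMSO replicate 2. Batf3, an AP-1 factor that acts with IRF4 and IRF8, rose with both, from 16.5 ± 2.49 CPM in DMSO to 26.8 ± 3.98 in olaparib (edgeR adjusted p = 0.0148) and 31.7 ± 7.84 in MNA (edgeR adjusted p = 0.0142). Jun fell with olaparib by 0.78 on the log2 scale (edgeR adjusted p = 0.0125) and with MNA by 0.74 (edgeR adjusted p = 0.0219). Nfatc1 rose by 0.46 with olaparib (edgeR adjusted p = 0.0221) and by 0.44 with MNA (edgeR adjusted p = 0.0289). With MNA Batf2, an interferon-inducible partner of IRF1, rose by 1.04 (edgeR adjusted p = 0.019) and Cebpb fell by 0.72 (edgeR adjusted p = 0.0197).

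Of 13 tested genes of alternative activation, a programme in which IRF4 acts, 2 were called up and 2 down with olaparib and 1 up and 3 down with MNA, beside all-gene shares of 14.3% up and 12.8% down with olaparib and 16.3% and 12.3% with MNA. Leaving out MNA replicate 2 gave 4 up and 4 down with olaparib, against 22.5% and 21.2% of all tested genes. It gave 2 up and 8 down with MNA, against 27.2% and 26.9%. None was called down with MNA without DMSO replicate 3 or MNA replicate 1, 3 or 4. Mrc1, the mannose receptor, was at 679 ± 125 CPM in DMSO, 571 ± 98.9 in olaparib and 241 ± 187 in MNA (log2 fold change with MNA -1.49, edgeR adjusted p = 0.021), with 519 in MNA replicate 2. Retnla also fell with MNA (-1.23, edgeR adjusted p = 0.0211), and Socs2 rose with MNA (0.40, edgeR adjusted p = 0.0343) and with olaparib (0.58, edgeR adjusted p = 0.00625). With olaparib Ccl24 fell from 384 ± 89.0 to 57.8 ± 23.7 CPM (edgeR adjusted p = 1.34e-04) and Kdm6b fell by 0.43 on the log2 scale (edgeR adjusted p = 0.0136), as it did with MNA by 0.33 (edgeR adjusted p = 0.041). Of 10 tested inflammatory cytokine genes, the class that IRF5 is known to induce, none was called with olaparib and 4 were called up and 1 down with MNA. With olaparib 2 were higher and 1 lower at an unadjusted edgeR p under 0.05, and DESeq2 called 2 higher. With olaparib the smallest p-values were those of Ccl2 (log2 fold change 1.07, edgeR adjusted p = 0.0596), Il18 (0.64, edgeR adjusted p = 0.0633) and Tnf (-0.40, edgeR adjusted p = 0.110). Without MNA replicate 2, 5 of the 10 were called up with olaparib, against 22.5% of all tested genes, and 5 up and 2 down with MNA, against 27.2% and 26.9%. The number up with MNA was 1 without MNA replicate 3 or 4 and 2 without MNA replicate 1 or DMSO replicate 2, 3 or 4. With MNA Ccl3 (2.64, edgeR adjusted p = 0.0142), Ccl4 (2.66, edgeR adjusted p = 0.0165) and Tnf (0.63, edgeR adjusted p = 0.0253) were higher. In the fit of MNA and DMSO alone, edgeR called no gene of these lists, from the activation machinery to the cytokines, in either direction. At an unadjusted edgeR p under 0.05, 23 of the 28 interferon gamma targets and 22 of 42 type I targets were higher. The share of all genes at that threshold in this fit is not given here, so these counts have no background beside them.

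Macrophage markers were present in all 12 libraries, and markers of other cells were low. The summed level of 8 macrophage markers was 4168 to 5347 CPM in DMSO, 8866 to 10676 in olaparib and 3926 to 7906 in MNA. It was higher in the olaparib libraries, in which Irf5, Irf7 and Irf9 were higher, but not every marker rose. Lyz2 gave most of it in olaparib, with 130160 to 180146 counts against 47220 to 54071 in DMSO. Adgre1, Csf1r, Mertk, Itgam and Fcgr3 also had more counts in each olaparib library than in any DMSO library. Cd68 had 23356 to 41007 counts in DMSO and 20646 to 23778 in olaparib, and Cd14 had 1061 to 1381 and 825 to 1573. The summed level of 6 dendritic cell markers, cells in which Irf8 is high, was 17.6 to 21.1 CPM in DMSO, 18.2 to 22.99 in olaparib and 18.3 to 26.6 in MNA. Zbtb46 gave most of it, and the markers did not move as 1 group. Ccr7 had 1 to 12 counts in DMSO, 20 to 58 in olaparib, 258, 145 and 139 in MNA replicates 1, 3 and 4 and 12 in replicate 2. Xcr1 had 26 to 69 counts in DMSO, 12 to 25 in olaparib, 14, 24 and 20 in MNA replicates 1, 3 and 4 and 59 in replicate 2. Siglech, which marks plasmacytoid dendritic cells, a cell type rich in Irf7, had 0 counts in every DMSO and olaparib library and 0 to 6 in MNA. Klk1 likewise had 0 counts in DMSO and olaparib and 0 to 13 in MNA. The 4 markers of these cells summed to 32.8 to 40.6 CPM in DMSO, 30.4 to 32.7 in olaparib and 21.6 to 35.6 in MNA. Tcf4 gave nearly all of this sum. It had 700 to 1173 counts in DMSO, 730 to 918 in olaparib, 560, 536 and 557 in MNA replicates 1, 3 and 4 and 988 in replicate 2. The 6 T and NK cell markers summed to 2.31 to 3.82 CPM in DMSO, 11.1 to 18.3 in olaparib and 2.58 to 5.68 in MNA, and Klrb1c gave most of it in olaparib, with 299 to 458 counts. The 6 B cell markers, cells that also make Irf4 and Irf8, summed to at most 7.14 CPM in any library. The 6 neutrophil markers reached 41.4 CPM and the 5 erythroid markers 54.5 CPM in MNA replicate 4 alone. In the other MNA libraries they summed to 1.18 to 5.36 and 0.0358 to 0.247 CPM, and in DMSO to at most 6.61 and 3.80. Mast cell, basophil and eosinophil markers summed to at most 1.24 CPM and stromal markers to at most 2.89. The part of these markers in the IRF results was not tested.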

How the data were processed

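Raw read counts per Ensembl gene, 1 table per library, were deposited by the authors without normalization. Per the labels and the study's methods, 150-bp single-end reads of stranded mRNA libraries were aligned with STAR 2.5.2b to GRCm38.p5, and DESeq2 in R 3.6.0 was the study's test. The strand setting of the counting is not given in the sources used here. Gene names and lengths came from GENCODE (GRCm38), which held 34490 of 35275 gene IDs.

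The 8 genes and the gene lists were chosen with earlier results of these data known. Every count was used as deposited. Genes passed edgeR's filterByExpr (minimum count 10, minimum total 15), and 12849 were tested. The quasi-likelihood F test of edgeR 4.0.16 (R 4.3.3), after TMM normalization, was run on the 12 libraries with group as the only term, and an SE was taken from the F value. The fit was tested on simulated data. Alternatives were DESeq2 1.42.0, other normalizations and filters, a replicate block, fits of the groups compared alone, and fits without each library. Named genes were the 8 IRFs, the 2 genes most like each, and the 3 genes of each list with the smallest p in each treatment, of which 1 is not reported here.

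The labels number the replicates 1 to 4 in each group without saying what a number marks. Deviations of olaparib and DMSO libraries of the same number from their group means correlated at r = 0.227, 0.172, 0.225 and 0.408. Each was above every r between olaparib and DMSO libraries of different numbers (at most 0.0981). The numbers may thus pair these libraries, though the labels do not say so, and the main fit has no term for a pairing. The replicate block changed no IRF call between these groups with all 12 libraries. With MNA replicate 2 also left out, it called Irf8 lower (edgeR adjusted p = 0.0299). Protein sequences were not used here.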

Additional observations from a re-analysis of the deposited data

Results flagged for a closer look

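Among 24 groups of 4 libraries (8 IRFs in 3 treatments), 1 held a library far from the other 3: Irf5 in MNA. MNA replicate 2 was the lowest at 183 CPM, and its gap to the nearest other MNA library was 0.952 of the group's whole range. Chance alone flags about 1 in 20 such groups. The cause was not tested.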

How the results depend on the processing

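Of 480 single-gene changes recomputed under other settings, 424 kept their direction and their side of the threshold, 21 passed it newly, 32 no longer passed it and 3 turned direction. None crossed the threshold under the RLE or upper quartile normalizations. The 3 turned changes were uncalled olaparib changes near 0. Irf1 (-0.10) ranged from -0.219 to 0.0466 when single libraries were left out, above 0 without DMSO replicate 3. Irf3 (0.03) ranged from -0.00496 to 0.0724, below 0 without DMSO replicate 4. Irf4 (0.07) ranged from -0.0233 to 0.142, below 0 without DMSO replicate 2.

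With MNA against DMSO, 3 IRFs were called up with 12 libraries, 1 to 6 when single libraries were left out (6 without MNA replicate 2), 5 with the replicate block, 6 with the replicate block and without MNA replicate 2, and 0 in the fit of these groups alone, where the common dispersion was 0.0447 against 0.0333 in the 12-library fit. Called down were 0 to 1 when single libraries were left out and 1 with the block and without MNA replicate 2. For olaparib against MNA, the IRFs higher with olaparib numbered 1, and 2 with DESeq2, 1 to 2 when single libraries were left out and 2 with the block and without MNA replicate 2. Those lower numbered 3, 1 to 5 when single libraries were left out and 5 with the block and without MNA replicate 2. For olaparib against DMSO, 1 IRF was called down with the block and without MNA replicate 2, Irf8 (adjusted p = 0.0299).

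Same-numbered MNA and DMSO libraries correlated at r = 0.242, 0.114, -0.00938 and 0.277. Libraries of different numbers in these groups reached 0.153, for MNA replicate 2 and DMSO replicate 3. The MNA deviations were taken from a mean that includes replicate 2, which stood apart. These values therefore cannot decide whether MNA and DMSO libraries were paired. Without MNA replicate 2 the common dispersion was 0.0123, and 0.00654 with the replicate block added. The replicate block added Irf8 (adjusted p = 0.0312) and Irf9 (0.0314) to the MNA calls. Over all settings the interferon gamma targets called up numbered 2 to 18 with olaparib (3 with 12 libraries) and 0 to 26 with MNA (19), and the type I targets 19 to 36 (22) and 0 to 30 (20). All-gene shares are given only for the 12-library fit and the fit without MNA replicate 2. Irf7, at 74 to 509 counts, is the member with the thinnest depth. A level order by the length of RefSeq proteins was not run, and coding length stood in for it.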
